A study of Mus musculus with 12 samples.

Results

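The 10 transcription factor genes of the oligodendrocyte lineage were followed in primary mouse oligodendrocyte precursor cells (OPCs) treated with an EZH2 inhibitor, interferon-γ (IFN-γ), both agents or neither. They were taken by symbol as 10 of the 55536 annotated genes: *Olig1*, *Olig2*, *Sox10*, *Sox8*, *Myrf*, *Nkx2-2*, *Nkx6-2*, *Zfp488*, *Tcf7l2* and *Hes5*. The series held 12 bulk RNA-seq libraries, 3 in each of 4 groups, with replicates grown from different litters. OPCs came from pooled brains of pups at postnatal days 4 to 6 (P4-P6) of the Sox10:Cre-RCE:LoxP(EGFP) reporter line, in which Cre driven by *Sox10* switches on EGFP in the oligodendrocyte lineage. They were obtained either by sorting for Sox10GFP or with CD140a microbeads, and the labels call every library Sox10GFP+ OPCs without saying which route was used for it. The labels also enter EAE as the mouse model, whereas the protocols describe cultures from pups. All cells grew in proliferation medium with PDGFaa and bFGF. EZH2i cells received EPZ011989 at 1.5 µM for 4 days, renewed every 48 h. IFN-γ cells received 100 ng/ml for 6 h. The combined group (IFN-γ + EZH2i) had 4 days of inhibitor and then 6 h of IFN-γ with fresh inhibitor, and Ctr cells had neither agent. Whether Ctr cells received a vehicle was not given in the sources used here.

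OLIG1 and OLIG2 are basic helix-loop-helix factors that specify oligodendroglia, and SOX10 with its close relative SOX8 (both SOXE factors) keeps the lineage and opens the differentiation program. NKX2-2, NKX6-2, MYRF, ZFP488 (ZNF488 in humans) and TCF7L2 act around the passage from precursor to myelinating cell, with MYRF as the direct activator of myelin genes and TCF7L2 as a nuclear partner of β-catenin. HES5 is a Notch effector that holds precursors back. EZH2 is the methyltransferase of Polycomb repressive complex 2 (PRC2), which places H3K27me3 on CpG-rich promoters, many of them of developmental transcription factors.

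The genes are spread over 8 mouse chromosomes (GRCm38). *Olig2* (chr16:91225457-91228677, plus strand) and *Olig1* (chr16:91269772-91271933, plus strand) are neighbours. The SOXE pair lies at chr15:79154908-79165240 (*Sox10*, minus strand) and chr17:25565892-25570686 (*Sox8*, minus strand). The homeobox genes lie at chr2:147177546-147194243 (*Nkx2-2*, minus strand) and chr7:139579376-139582797 (*Nkx6-2*, minus strand). *Myrf* is at chr19:10208272-10240748 (minus strand) and *Tcf7l2* at chr19:55741820-55933654 (plus strand). *Zfp488* is at chr14:33967070-33978764 (minus strand) and *Hes5* at chr4:154960923-154962371 (plus strand).

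Promoter sequences are shown for *Sox8*, *Zfp488* and *Olig2*, which had lower RNA after both agents, for *Nkx6-2*, the member with the largest fitted rise, and for *Hes5*, whose promoter is the textbook Notch target. They are the bases before the start site in RefSeq (GRCm38.p6), 5′ to 3′ on the gene's strand, and 7 of the 10 members have an entry there. The *Olig2* window ends where the annotated gene begins, so it has 157 bases, and the others have 250. In the *Sox8* (chr17:25570687-25570936, minus strand), *Zfp488* (chr14:33978765-33979014, minus strand), *Olig2* (chr16:91225300-91225456, plus strand) and *Nkx6-2* (chr7:139582798-139583047, minus strand) windows the capitals mark CG dinucleotides. In the *Hes5* window (chr4:154960673-154960922, plus strand) they mark GTGGGAA, a core of the RBPJ site through which Notch acts, on either strand.
Sox8: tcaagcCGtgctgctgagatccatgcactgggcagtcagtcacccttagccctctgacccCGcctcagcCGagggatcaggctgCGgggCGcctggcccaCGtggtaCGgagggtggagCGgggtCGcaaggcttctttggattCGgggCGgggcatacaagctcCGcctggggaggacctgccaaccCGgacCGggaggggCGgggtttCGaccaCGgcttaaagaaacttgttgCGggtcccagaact
Zfp488: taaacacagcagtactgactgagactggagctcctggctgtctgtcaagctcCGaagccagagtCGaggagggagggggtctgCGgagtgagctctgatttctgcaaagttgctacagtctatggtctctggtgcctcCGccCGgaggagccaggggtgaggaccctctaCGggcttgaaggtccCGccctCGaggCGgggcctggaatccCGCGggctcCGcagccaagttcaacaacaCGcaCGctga
Olig2: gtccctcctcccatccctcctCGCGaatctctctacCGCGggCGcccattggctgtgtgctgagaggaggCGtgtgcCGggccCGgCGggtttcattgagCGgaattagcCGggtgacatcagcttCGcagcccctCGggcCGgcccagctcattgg
Nkx6-2: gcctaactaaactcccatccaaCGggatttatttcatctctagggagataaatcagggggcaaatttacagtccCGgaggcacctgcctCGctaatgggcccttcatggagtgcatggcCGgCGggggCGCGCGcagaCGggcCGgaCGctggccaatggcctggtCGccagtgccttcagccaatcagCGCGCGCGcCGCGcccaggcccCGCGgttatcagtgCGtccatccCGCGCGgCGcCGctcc
Hes5: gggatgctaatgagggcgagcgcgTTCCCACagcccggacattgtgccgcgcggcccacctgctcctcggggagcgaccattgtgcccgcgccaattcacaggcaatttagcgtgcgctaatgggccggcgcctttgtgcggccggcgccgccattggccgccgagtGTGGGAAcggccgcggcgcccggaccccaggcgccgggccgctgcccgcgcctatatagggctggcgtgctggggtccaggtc

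The printed windows held 18 CG dinucleotides for *Sox8*, 14 for *Zfp488*, 14 for *Olig2*, 26 for *Nkx6-2* and 32 for *Hes5*. Over the full 250 bases, GC content was 65.6% for *Sox8*, 61.6% for *Zfp488*, 66.8% for *Olig2*, 65.2% for *Nkx6-2* and 71.6% for *Hes5*, against a median of 52.4% over 32817 RefSeq windows of the same length. The ratio of observed to expected CpG was 0.676, 0.594, 0.821, 0.982 and 1 in the same order, against a median of 0.373. *Hes5* held GTGGGAA on its own strand 83 bases before the start and the reverse complement TTCCCAC 226 bases before it, and 5.42% of all windows held this motif on either strand. The interferon motifs TTCNNNGAA (the GAS element) and GAAA, any 2 bases and GAAA (the interferon-stimulated response element, ISRE), each searched on both strands, were found in none of the 8 member windows and in 7.01% and 2.97% of all windows. The TCF/LEF motif ATCAAAG was likewise in none of the 8, and in 3.21% of all windows. These matches describe letters in these windows. The *Sox8* window also holds exon sequence of *2810468N07Rik* and the *Hes5* window of *Gm20421*.

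Totals ranged from 17403893 to 66546052 estimated counts per library (median 33625908), and all 10 genes passed the filter on low counts, as did 18995 genes in all. The IFN-γ labels were checked on *Irf1*, an interferon response gene, which stood at 11.98 ± 0.410 CPM (counts scaled to library size after TMM normalization, the trimmed mean of M values; SD, n = 3) in Ctr, 10.2 ± 0.345 in EZH2i, 951 ± 116 in IFN-γ and 993 ± 133 in IFN-γ + EZH2i. *Ezh2*, the gene of the inhibited enzyme, was not called in any comparison (lowest adjusted p = 0.190; edgeR), and its RNA says nothing of enzyme activity. OPC markers summed to 561 to 1159 TPM (a length-scaled level) per library, and differentiation and myelin genes to 814 to 2020 TPM. The 8 microglia and macrophage markers summed to 0.272 to 0.712 TPM per library, and 2 of the 8 passed the filter. Of the 8, *Aif1* and *Trem2* were at or under 3 counts in every library, while *P2ry12* stood at 0.184 to 0.602 TPM.

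Per transcript length (TPM), *Olig1* was the highest of the 10 in every group, at 384 ± 114 TPM in Ctr (SD, n = 3), 434 ± 53.4 in EZH2i, 349 ± 0.369 in IFN-γ and 282 ± 37.3 in IFN-γ + EZH2i. In bulk RNA, fewer cells of a type and less RNA per cell cannot be told apart, and this holds for every level given here. In Ctr it was followed by *Olig2* (142 ± 55.4 TPM), *Sox10* (117 ± 16.7) and *Sox8* (85.5 ± 20.5), whose neighbours in this order overlapped between libraries. *Nkx2-2* (27.6 ± 7.47 TPM) and *Hes5* (22.5 ± 9.25) came next and overlapped too. *Myrf* (8.34 ± 2.07 TPM), *Zfp488* (7.77 ± 1.71), *Tcf7l2* (5.09 ± 1.36) and *Nkx6-2* (3.23 ± 0.525) were the lowest. *Myrf* overlapped *Zfp488*, and *Tcf7l2* overlapped *Nkx6-2*, while *Zfp488* lay above *Tcf7l2* in every Ctr library. The order changed most for *Nkx6-2*, which was the lowest of the 10 in Ctr and rank 7 of 10 in IFN-γ (12.4 ± 7.62 TPM) and 6 of 10 in IFN-γ + EZH2i (11.1 ± 8.25).

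**Figure D1:**
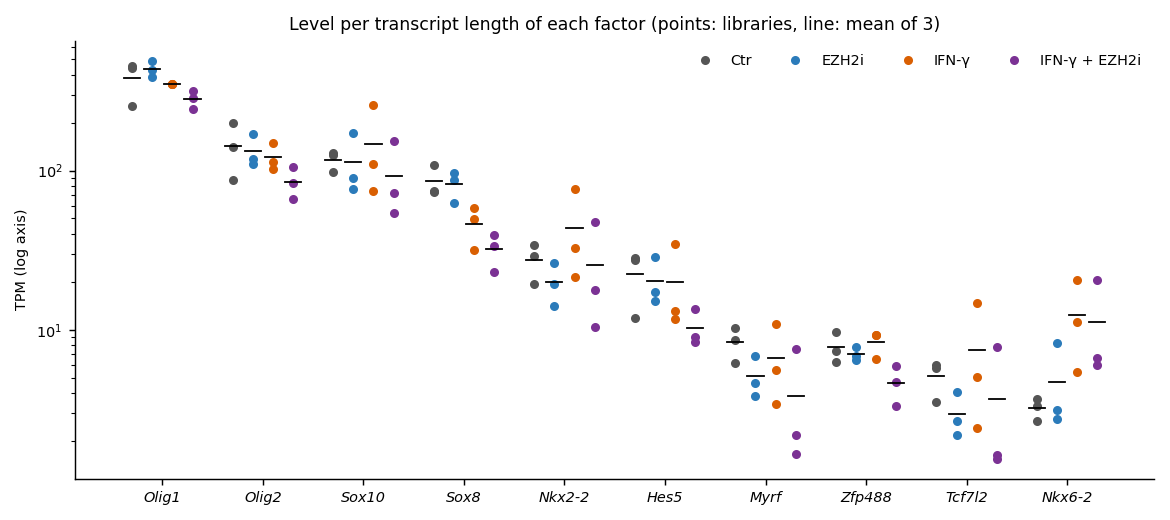
TPM of each factor on a log axis, with 1 point per library coloured by group and a line at the mean of the 3 libraries. *Olig1* lies above the other factors in each group, and *Nkx6-2* moves from the bottom of the Ctr order to 12.4 and 11.1 TPM in the groups with IFN-γ.

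The question of each comparison was whether the agent, alone or on top of the other, moved the RNA of these regulators. The 3 comparisons against Ctr share the Ctr libraries. *Sox8* fell with IFN-γ whether or not EZH2 was inhibited. In Ctr replicates 1 to 3 its level was 372, 387 and 232 CPM, and in EZH2i 297, 262 and 198 CPM. In IFN-γ it was 211, 148 and 113 CPM, and in IFN-γ + EZH2i 144, 117 and 90.9 CPM. The lowest library without IFN-γ (EZH2i replicate 3, 198 CPM) lay just under the highest with it (IFN-γ replicate 1, 211 CPM), but IFN-γ and Ctr did not overlap, nor did IFN-γ + EZH2i and EZH2i. On the log2 scale *Sox8* was lower by -1.07 ± 0.27 (SE) in IFN-γ than in Ctr (2.10-fold lower; edgeR quasi-likelihood test, adjusted p = 0.0270). It was lower by -1.10 ± 0.27 in IFN-γ + EZH2i than in EZH2i (2.15-fold, adjusted p = 0.0237), and by -1.49 ± 0.27 in IFN-γ + EZH2i than in Ctr (2.82-fold, adjusted p = 0.00287). The last call held without any of the 12 libraries left out in turn (highest adjusted p = 0.0156).

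The IFN-γ call against Ctr was lost without Ctr replicate 1 (adjusted p = 0.0884), Ctr replicate 2 (0.107), IFN-γ replicate 2 (0.105) or IFN-γ replicate 3 (0.0930), and with only the 6 libraries compared (0.0574). The call against EZH2i was lost without EZH2i replicate 1 (adjusted p = 0.0877), EZH2i replicate 2 (0.0743), IFN-γ + EZH2i replicate 2 (0.0836) or IFN-γ + EZH2i replicate 3 (0.0951). Over the 12 fits without 1 library *Sox8* stayed lower, by -0.88 to -1.34 against Ctr and by -0.96 to -1.30 against EZH2i. In TPM the same groups of libraries did not overlap.

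The gene *2810468N07Rik*, on the opposite strand, overlaps *Sox8* and was lower in the same comparisons, by -0.95 in IFN-γ against Ctr (adjusted p = 0.00388) and by -1.09 in IFN-γ + EZH2i against EZH2i (adjusted p = 0.00142). The libraries were made with a stranded kit, but whether the counting used strand is not given in the sources used here, so reads of the shared stretch cannot be assigned with certainty. The transcript *Sox8-201* carried 84.51% to 92.55% of *Sox8* TPM in the 12 libraries. *2810468N07Rik* was at 23.9 TPM on average in Ctr, against 85.5 for *Sox8*.

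*Sox10*, the other SOXE gene, was not called in any comparison by the main test (edgeR with group as the only term). Its level ranged from 301 to 624 CPM in Ctr, 236 to 525 in EZH2i, 252 to 888 in IFN-γ and 209 to 526 in IFN-γ + EZH2i, and replicate 1 was the highest of its group each time. Within a library, the ratio of *Sox10* to *Sox8* TPM compares them over the same cells. It was 1.73, 1.15 and 1.33 in Ctr replicates 1 to 3 and 1.79, 1.03 and 1.23 in EZH2i. With IFN-γ it was 4.42, 2.23 and 2.32, and with both agents 3.88, 2.13 and 2.34. The 6 libraries with IFN-γ thus lay above the 6 without it, with no overlap and with no test made of the ratio.

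**Figure D2:**
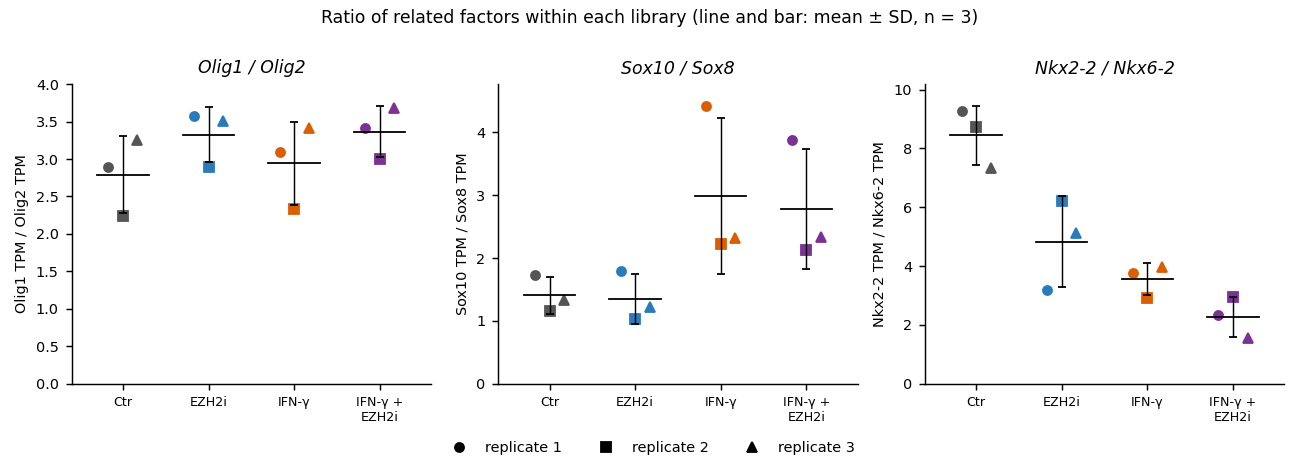
Ratio of the TPM of related factors within each library (y axis, from 0) for the 4 groups, with points for replicates 1 to 3 and a line and bar for the mean ± SD. The *Sox10* to *Sox8* ratio is 1.03 to 1.79 without and 2.13 to 4.42 with IFN-γ, and the *Nkx2-2* to *Nkx6-2* ratio goes from 8.44 on average in Ctr to 2.27 after both agents.

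*Olig1* and *Olig2* were lower after both agents than in Ctr, and the main test called neither after either agent alone. *Olig1* stood at 974, 1270 and 1126 CPM in Ctr replicates 1 to 3 and at 1028, 1164 and 961 CPM in EZH2i. It was 951, 809 and 955 CPM in IFN-γ and 774, 845 and 750 CPM in IFN-γ + EZH2i. *Olig2* stood at 400.0, 674 and 412 CPM in Ctr and 341, 477 and 326 CPM in EZH2i. It was 366, 413 and 333 CPM in IFN-γ and 269, 334 and 242 CPM in IFN-γ + EZH2i. In CPM all 3 libraries with both agents lay below all 3 Ctr libraries for each gene, while in TPM, where Ctr replicate 1 was low, these groups overlapped. IFN-γ + EZH2i was lower than Ctr by -0.51 ± 0.14 for *Olig1* (1.42-fold, adjusted p = 0.0293) and by -0.81 ± 0.22 for *Olig2* (1.76-fold, adjusted p = 0.0310).

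These calls were close to the threshold. That of *Olig1* was lost without Ctr replicate 2 (adjusted p = 0.113) or 3 (0.0752), without IFN-γ + EZH2i replicate 1 (0.0549), 2 (0.0570) or 3 (0.0793), with no filter on low counts (0.0690) and with only the 6 libraries compared (0.0838). That of *Olig2* was lost without Ctr replicate 2 (0.112), without IFN-γ + EZH2i replicate 1 (0.0623) or 3 (0.0992), and with only the 6 libraries compared (0.0625). Every library kept *Olig1* above *Olig2*, at a TPM ratio of 2.24 to 3.68.

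The differentiation regulators *Myrf*, *Zfp488* and *Tcf7l2* had lower mean levels with the EZH2 inhibitor. They shared this with other members, since the inhibitor's fitted difference was below 0 for 9 of 10 without IFN-γ and 10 of 10 with it. Among the 3 regulators, *Zfp488* passed the test, with both agents against Ctr. *Zfp488* was at 50.9, 44.0 and 49.9 CPM in Ctr replicates 1 to 3 and at 32.8, 38.9 and 35.9 CPM in EZH2i. It was at 52.9, 44.6 and 37.5 CPM in IFN-γ and at 33.5, 26.3 and 21.6 CPM in IFN-γ + EZH2i. Each inhibitor group lay below its counterpart without inhibitor. IFN-γ + EZH2i was lower than Ctr by -0.83 ± 0.17 (1.78-fold, adjusted p = 0.00709), a call that held without any of the 12 libraries left out in turn (highest adjusted p = 0.0344). Inhibitor alone gave -0.43 ± 0.17 (adjusted p = 0.578), and inhibitor on top of IFN-γ -0.73 ± 0.17 (adjusted p = 0.147 by edgeR and 0.0258 by DESeq2). The TPM of EZH2i (6.50 to 7.81) and of Ctr (6.31 to 9.64) overlapped.

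*Myrf* was at 74.8, 45.1 and 33.9 CPM in Ctr and at 32.1, 25.0 and 20.9 CPM in EZH2i, with no overlap in CPM. In TPM its highest EZH2i library (6.83) lay above its lowest Ctr library (6.14). It was at 57.5, 30.8 and 19.7 CPM in IFN-γ and at 37.2, 13.9 and 12.2 CPM in IFN-γ + EZH2i. Its spread was wide, and the fitted differences missed the threshold: -0.98 ± 0.47 for EZH2i against Ctr (adjusted p = 0.765), -0.78 ± 0.47 for inhibitor on top of IFN-γ (0.941) and -1.29 ± 0.48 for both agents against Ctr (0.113 by edgeR and 0.0443 by DESeq2). Without IFN-γ + EZH2i replicate 1, the last became -1.999 (adjusted p = 0.0139).

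*Tcf7l2* was at 22.7, 17.6 and 9.45 CPM in Ctr and at 7.54, 6.93 and 6.22 CPM in EZH2i, again with no overlap in CPM. In TPM these groups overlapped (EZH2i up to 4.05, Ctr from 3.52). It was at 42.0, 14.4 and 9.07 CPM in IFN-γ and 21.7, 5.59 and 5.09 CPM in IFN-γ + EZH2i. The fitted difference of EZH2i from Ctr was -1.26 ± 0.63 (adjusted p = 0.786), and in every group replicate 1 was the highest. Of its 22 annotated transcripts, *Tcf7l2-210* held the largest mean share of TPM in Ctr (29.4%), and the low counts leave these shares imprecise.

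The homeobox genes *Nkx2-2* and *Nkx6-2* were not called in any comparison by the main test. *Nkx6-2* was at 9.26, 6.61 and 4.65 CPM in Ctr replicates 1 to 3 and at 13.7, 5.26 and 4.95 CPM in EZH2i. It was at 37.8, 17.9 and 10.2 CPM in IFN-γ and at 37.5, 11.6 and 14.9 CPM in IFN-γ + EZH2i. Both groups with IFN-γ lay above Ctr with no overlap, in CPM and in TPM. The fitted rise was 1.69 ± 0.58 for IFN-γ against Ctr (3.22-fold), with an adjusted p of 0.113 by edgeR and 0.0246 by DESeq2. For both agents against Ctr it was 1.64 ± 0.58 (3.12-fold), with an adjusted p of 0.0966 by edgeR and 0.0239 by DESeq2. The main test thus did not call it. *Inpp5a* overlaps *Nkx6-2* and was not called in any of these comparisons (-0.04 for IFN-γ against Ctr, adjusted p = 0.921). Of *Nkx6-2* TPM, 46.2% to 69.2% came from the protein-coding transcript *Nkx6-2-202* and the rest from *Nkx6-2-201*, which is annotated as a nonsense-mediated decay target. Both transcripts were higher with IFN-γ, at 7.33 TPM for *Nkx6-2-202* and 5.05 for *Nkx6-2-201* against 1.95 and 1.28 in Ctr (means of 3 libraries, not tested).

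*Nkx2-2* ranged from 34.1 to 110.5 CPM in Ctr, 22.7 to 47.3 in EZH2i, 44.9 to 186 in IFN-γ and 23.3 to 111 in IFN-γ + EZH2i. All groups overlapped and no comparison was called by the main test. With IFN-γ, *Nkx2-2* was lower with inhibitor than without it in replicate numbers 1, 2 and 3, at log2 ratios of -0.74, -0.65 and -0.95. The TPM ratio of *Nkx2-2* to *Nkx6-2* was 7.34 to 9.27 in Ctr, 3.17 to 6.21 in EZH2i, 2.92 to 3.98 in IFN-γ and 1.56 to 2.93 in IFN-γ + EZH2i, so that the 3 treated groups lay below Ctr.

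*Hes5* was at 17.8, 36.4 and 32.6 CPM in Ctr replicates 1 to 3 and at 13.8, 33.4 and 21.3 CPM in EZH2i. It was at 14.3, 38.2 and 16.0 CPM in IFN-γ and at 9.79, 16.8 and 12.9 CPM in IFN-γ + EZH2i. Only the combined group lay below Ctr with no overlap in CPM. Its difference from Ctr was -1.13 ± 0.43 (2.19-fold), with an adjusted p of 0.120 by edgeR, 0.0487 by DESeq2 and 0.0476 with only the 6 libraries compared. *Hes5* differed from *Sox10*, *Nkx2-2* and *Tcf7l2* in that replicate 1 was its lowest library in every group.

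**Figure D3:**
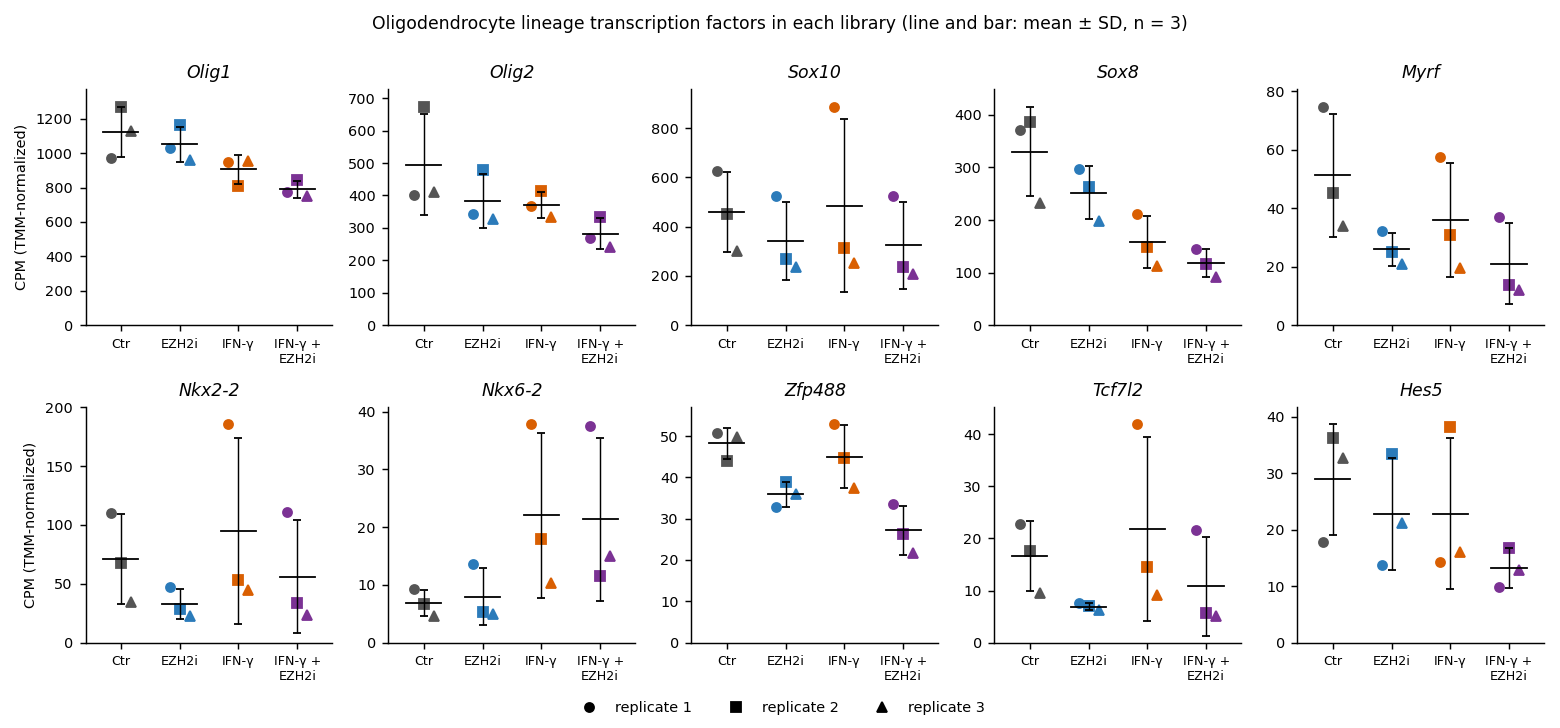
TMM-normalized CPM of the 10 factors (y axis, from 0) in the 4 groups, with points for replicates 1 to 3 and a line and bar for the mean ± SD. *Sox8* falls from 330 ± 85.5 CPM in Ctr to 157 ± 49.6 with IFN-γ and 117 ± 26.6 with both agents, and replicate 1 is the highest point for *Sox10*, *Nkx2-2* and *Tcf7l2* in every group.

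Counted over the 10 members, EZH2 inhibition alone called none, where 0.405% of all genes tested were called and every called gene was higher. By unadjusted p under 0.05, 1 member passed in edgeR (*Zfp488*), against 7.04% of all genes, and DESeq2 called none. The fitted difference was below 0 for 9 of 10 members with a median of -0.40, against a median of 0.01 over all genes and 48.9% of all genes below 0. In 3 of 10 (*Myrf*, *Zfp488* and *Tcf7l2*, each lower) the groups did not overlap, against 12.7% of all genes in either direction and 5.34% lower. In TPM all 10 members overlapped between these groups. With the replicate number fitted as a block (edgeR), 2 of 10 were called, *Myrf* (adjusted p = 0.0125) and *Nkx2-2* (0.0240), both lower. That fit called 771 of all 18995 genes tested, and it is no paired analysis against Ctr. IFN-γ alone called 1 of 10 (*Sox8*, lower), against 8.75% of all genes (2.1% lower). In 3 of 10 the groups did not overlap (*Olig1* and *Sox8* lower, *Nkx6-2* higher), against 23% of all genes (9.52% lower, 13.5% higher). The median over the members was -0.21, and it was -0.45 without IFN-γ replicate 1, -0.060 without IFN-γ replicate 3 and -0.10 without Ctr replicate 1. With the block, 4 of 10 were called, *Olig2*, *Sox8* and *Myrf* lower and *Nkx6-2* higher, against 4032 of all 18995 genes tested.

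Both agents against Ctr called 4 of 10, all lower (*Olig1*, *Olig2*, *Sox8* and *Zfp488*), against 12.3% of all genes (3.52% lower, 8.81% higher). In 6 of 10 the groups did not overlap (the same 4 and *Hes5* lower, *Nkx6-2* higher), against 27.1% of all genes (11.6% lower, 15.5% higher). Without Ctr replicate 2 or IFN-γ + EZH2i replicate 3, 2 of 10 were called, beside 1632 and 1854 genes in all. With the block, 8 of 10 were called (7 lower, 1 higher), against 5531 of all 18995 genes tested. The members' median was -0.72, against 0.00 over all genes. Since the members were chosen as a group and share cells and litters, these counts carry no test of their own.

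**Figure D4:**
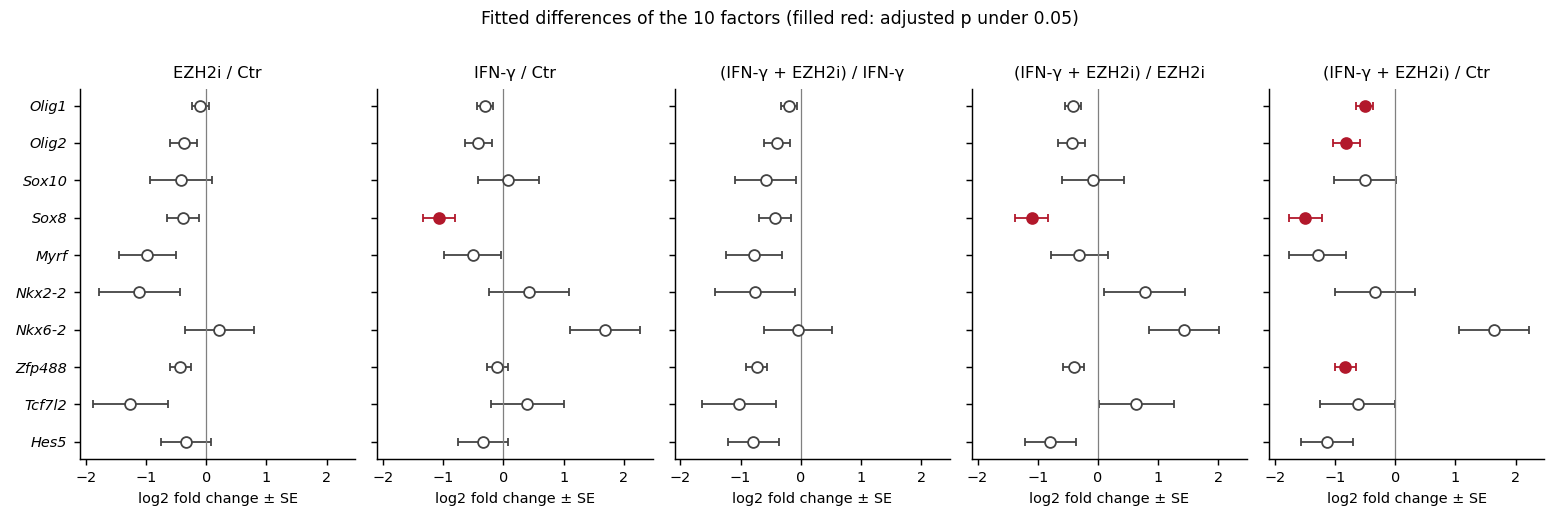
Fitted log2 fold change (x axis) ± SE of the 10 factors in the 5 comparisons, filled red where the adjusted p was under 0.05 (edgeR). *Sox8* is filled in the 3 comparisons that add IFN-γ, *Olig1*, *Olig2* and *Zfp488* only in that of both agents against Ctr, and 9 or 10 of the 10 points lie left of 0 wherever inhibitor is added or both agents are set against Ctr.

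EZH2 inhibition on top of IFN-γ called none of the 10 in the fit without pairing, against 0.353% of all genes. By unadjusted p under 0.05, 1 member passed in edgeR (*Zfp488*), against 6.42% of all genes. *Zfp488* was also the member DESeq2 called. All 10 fitted differences were below 0, against 50.9% of all genes, with a median of -0.66 against -0.01 over all genes. Without IFN-γ replicate 1 the median was -0.16 with 7 of 10 below 0, and without IFN-γ + EZH2i replicate 3 it was -0.37 with 9 of 10 below 0. Only *Zfp488* did not overlap (lower), 1 of 10 against 10.3% of all genes (4.26% lower). Libraries with the same replicate number deviated together in these 2 groups, so the replicate number was also fitted as a block. With the replicate block, 5 of 10 members were called, all lower, against 3.94% of all genes: *Olig2* by -0.41 (adjusted p = 0.0427), *Sox8* by -0.41 (0.0461), *Myrf* by -0.81 (0.0233), *Zfp488* by -0.74 (0.0110) and *Hes5* by -0.70 (0.0453). A block fit on only the 6 libraries compared, added after seeing the data, called 8 of 10, against 9.55% of all genes, with *Sox10* (-0.49, adjusted p = 0.0154), *Nkx2-2* (-0.79, 0.00152) and *Tcf7l2* (-1.05, 0.00268) besides these. *Olig1* and *Nkx6-2* were not called in either block fit.

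IFN-γ on top of EZH2 inhibition called 1 of 10 (*Sox8*, lower), against 8.07% of all genes (2.17% lower). In 2 of 10 the groups did not overlap (*Olig1* and *Sox8*, lower), against 21.5% of all genes (9.66% lower). With the replicate block, 6 of 10 were called, against 19.3% of all genes. *Sox8* (-1.11, adjusted p = 6.46e-06), *Olig1* (-0.41, 0.0229), *Olig2* (-0.43, 0.00889), *Hes5* (-0.74, 0.00940) and *Zfp488* (-0.43, 0.0477) were lower and *Nkx6-2* (1.42, 3.69e-04) was higher. With the block on only the 6 libraries compared, also added later, 5 of 10 were called, against 18.5% of all genes, *Zfp488* being the member lost (adjusted p = 0.0962).

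**Figure D5:**
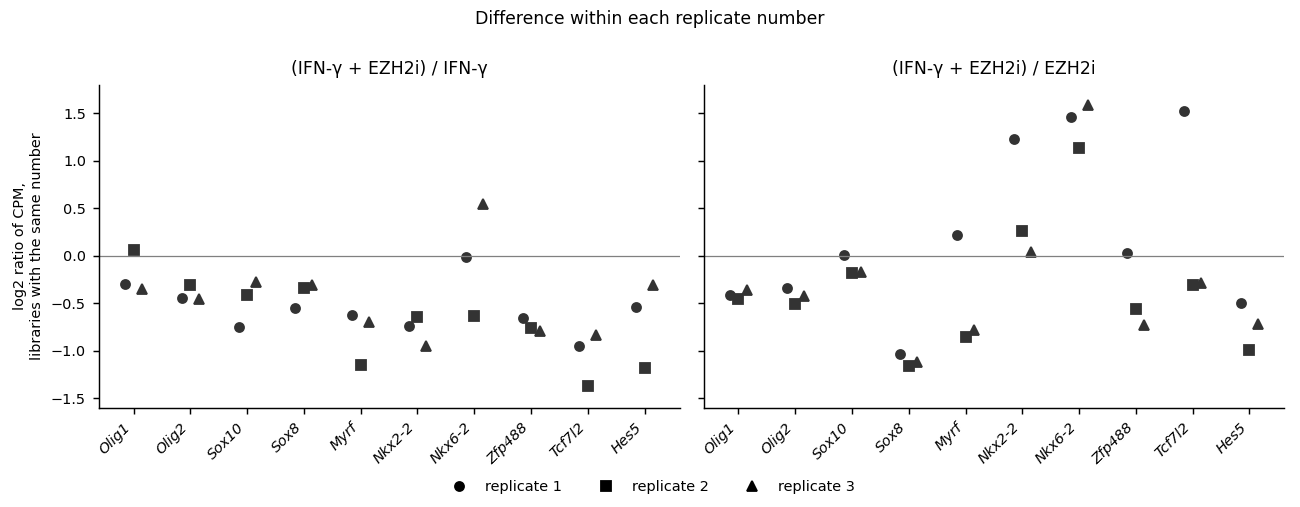
Log2 ratio of CPM between libraries with the same replicate number (y axis) for the 10 factors, with 1 point per number, for inhibitor on top of IFN-γ (left) and IFN-γ on top of inhibitor (right). On the left 8 of the 10 factors have all 3 points below 0, and on the right *Sox8* lies between -1.04 and -1.17 in all 3 numbers while *Nkx6-2* lies between 1.14 and 1.59.

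The effects of the inhibitor with and without IFN-γ were also compared with each other. None of the 10 interaction terms was called, and of all 18995 genes 0% were called (127 at an unadjusted p under 0.05; 0 called by DESeq2, 218 at an unadjusted p under 0.05). No member passed an unadjusted p of 0.05. For *Sox8* the difference of the 2 inhibitor effects was -0.03 ± 0.37, and the terms of the 10 members ran from -0.45 (*Hes5*) to 0.35 (*Nkx2-2*). With SEs of 0.19 (*Olig1*) to 0.94 (*Nkx2-2*), a difference of that size was not detectable in this design.

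Genes around these factors were described from lists. Over all genes tested, IFN-γ against Ctr called 6.65% higher and 2.1% lower, and both agents against Ctr 8.81% and 3.52%. IFN-γ on top of the inhibitor called 5.9% higher and 2.17% lower. The inhibitor called 0.405% higher without IFN-γ, and 0.347% higher and 0.00526% lower with it. These shares stand beside every count of list genes and cell markers below. Of 32 other regulators of the lineage, 31 passed the filter, and IFN-γ against Ctr called 2 higher and 3 lower. *Sox11*, a SOXC factor of immature neural cells, rose from 142 ± 8.71 to 475 ± 51.9 CPM (1.74 on the log2 scale, adjusted p = 7.07e-07). *Etv4*, an ETS factor downstream of growth factor signals, fell by 1.02 on the log2 scale (adjusted p = 0.00376), and *St18*, a zinc finger factor of the MYT family, fell by 0.98 on the log2 scale (0.0176). With both agents against Ctr 4 were called higher and 3 lower, among them *Sox11* (1.58 ± 0.11, adjusted p = 1.49e-06), *St18* (-1.50 ± 0.23, 9.60e-04) and *Prrx1*, a homeobox factor (1.27 ± 0.34, 0.0293). On top of the inhibitor, IFN-γ called 2 higher and 3 lower, with *Sox11* at 1.78, *Zfp536* at 1.24 and *Etv4* at -0.87 the largest. The inhibitor called none of the 31 with or without IFN-γ.

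Around *Hes5*, 20 of 21 Notch and Id genes passed the filter, and IFN-γ against Ctr called 2 higher and 2 lower. The receptor gene *Notch1* was higher by 1.20 ± 0.24 (adjusted p = 0.00635) and *Id3*, an inhibitor of bHLH factors, by 1.12 ± 0.26 (0.0179), while *Nrarp*, a Notch feedback gene, was lower by -1.33 ± 0.19 (6.76e-04). After both agents 5 were higher and 2 lower than Ctr, including *Id1* (1.18 ± 0.31, 0.0272). On top of the inhibitor, IFN-γ called 2 higher and 2 lower, and the largest was the ligand gene *Jag1* (-1.29 ± 0.13, 3.50e-05).

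Around *Tcf7l2*, all 17 Wnt effectors and targets passed, and IFN-γ against Ctr called 2, both higher: *Tcf7*, another TCF/LEF factor (2.76 ± 0.30, adjusted p = 7.40e-05), and the corepressor gene *Tle1* (0.50 ± 0.14, 0.0387). Both agents against Ctr called 3, all higher, the third being *Lef1*, at 0.139 ± 0.0760 CPM in Ctr and 4.16 ± 3.50 after both agents (adjusted p = 0.00299). IFN-γ on top of the inhibitor called 3 higher and 1 lower, *Apcdd1*, a Wnt inhibitor gene, being the lower (-0.77 ± 0.21, 0.0465). The median differences of the Notch and Wnt lists lay between -0.03 and 0.13 in these 3 comparisons.

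Differentiation and myelin genes, among them targets of the members, were lower after both agents where they passed the test. Of 25, 24 passed the filter, and 6 were called lower after both agents and none higher, against 3.52% and 8.81% of all genes. In the same comparison 24 of 24 were fitted lower, against 49.7% of all genes, and the median was -0.72. *Ermn* (-1.83 ± 0.54, adjusted p = 0.0444), *Gpr17*, a receptor gene of committed precursors (-1.64 ± 0.30, 0.00308), and *Enpp6*, a gene of newly formed oligodendrocytes (-1.35 ± 0.21, 7.84e-04), had the largest fitted falls. IFN-γ alone called 2 lower, *Itpr2* (-0.58) and *Ugt8a* (-0.53), and the inhibitor called none, with medians of -0.46 without and -0.52 with IFN-γ. Of the 10 OPC markers, IFN-γ called 4 lower and none higher, among them *Cspg4* (-1.16 ± 0.20, 0.00245), *Pdgfra* (-1.07 ± 0.24, 0.0141) and *Cacng4* (-0.99 ± 0.27, 0.0422), and both agents against Ctr likewise 4 lower. *Cspg4*, *Pdgfra*, *Cacng4* and *Neu4* thus moved in the same comparisons as *Sox8*, and their part in its difference was not tested.

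Markers of other cells were set beside these results. The 8 astrocyte markers summed to 271 to 670 TPM per library in Ctr, 600 to 841 in EZH2i, 391 to 670 in IFN-γ and 504 to 729 in IFN-γ + EZH2i. *Slc1a3* and *Aldoc* were the most abundant, and 8 of 8 passed the filter. *Gfap* averaged 34.7 TPM in Ctr, 85.95 in EZH2i, 56.7 in IFN-γ and 102 in IFN-γ + EZH2i. Inhibitor alone fitted 2 of the 8 lower (median 0.38), against 48.9% of all genes. On top of IFN-γ it fitted 1 of the 8 lower (median 0.32), against 50.9%. The 8 neuron markers summed to 15.7 to 20.5 TPM in Ctr and 27.8 to 46.4 in EZH2i, but to 295 to 559 in IFN-γ and 364 to 712 in IFN-γ + EZH2i. *Tubb3* made up most of that (289 to 688 TPM with IFN-γ, 8.51 to 20.9 without), while *Neurod6* was at or under 3 counts in every library. Of the 7 neuron markers that passed the filter, 0 were fitted lower with inhibitor alone or with both agents against Ctr. For all genes these shares were 48.9% and 49.7%. With IFN-γ alone 2 of the 7 were fitted lower. *Snap25* averaged 4.96 TPM in Ctr, 14.8 in EZH2i, 5.22 in IFN-γ and 10.55 in IFN-γ + EZH2i. Microglia and macrophage markers (0.272 to 0.712 TPM), pericyte and fibroblast markers (0.172 to 1.97), endothelial markers (1.66 to 6.78) and Schwann cell markers (3.45 to 9.77) were low by comparison. IFN-γ against Ctr called 1 astrocyte marker lower, 3 neuron markers higher and 2 pericyte and fibroblast markers higher, and the inhibitor alone called no marker of these 6 types. Both agents against Ctr called 4 neuron, 2 pericyte and fibroblast and 1 Schwann cell marker higher. The part of the astrocyte and neuron markers in the members' differences was not tested.

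The members also varied between replicates. Over the 12 libraries the SD of log2 CPM was 1.03 for *Nkx6-2*, 0.96 for *Nkx2-2* and 0.95 for *Tcf7l2*, against 0.24 for *Olig1*, 0.38 for *Olig2* and 0.39 for *Zfp488*. For *Nkx2-2* the closest of 14681 genes, by root mean square difference of centred log2 CPM over the 12 libraries, was another member, *Tcf7l2* (0.26), followed by *Sf3a2* (0.30) and *AC102496.1* (0.31). For *Tcf7l2* it was *Nkx2-2*, followed by *Sf3a2* (0.33) and *Smn1* (0.34). For *Nkx6-2* the closest were *Msc* (0.32), *Pmepa1* (0.32) and *Cd44* (0.35), which all had higher means in both groups with IFN-γ. These points share libraries and depth.

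The transcripts of the other members with several annotated forms are given as mean shares. *Sox10-201* carried 95.5% of *Sox10* TPM on average in Ctr and 91.3%, 92.1% and 91.9% in EZH2i, IFN-γ and IFN-γ + EZH2i. *Hes5-201* carried 77.7%, 80.7%, 81.8% and 80.8% in the same order, and *Myrf-201* 42.8%, 52.1%, 51.9% and 52.3%. *Olig1*, *Olig2* and *Zfp488* have a single annotated transcript. *Olig2*, *Sox10*, *Myrf* and *Zfp488* overlap no annotated gene, and the genes that overlap *Olig1*, *Nkx2-2*, *Tcf7l2* and *Hes5* reached at most 3.06 TPM in any library (*6430503K07Rik*, beside *Nkx2-2*).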

How the data were processed

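RNA-seq libraries (TruSeq Stranded Total RNA Gold, Illumina) were trimmed and quantified by the authors with Salmon 0.8.2 on mm10, and the deposited files hold estimated counts and TPM per transcript. Deposited tables of the authors' own DESeq2 comparisons (fold changes and p-values) were not used. All 141862 transcripts matched the GRCm38 annotation and were summed to 55536 genes, counts were rounded, and replicates differed beyond sampling noise. Groups came from the sample labels, and no column was left unassigned. Genes passing filterByExpr (18995) were tested with edgeR 4.0.16 (R 4.3.3) by quasi-likelihood F test with TMM factors, group as the only term and all 12 libraries, with Benjamini-Hochberg adjustment and a threshold of 0.05. A call means an adjusted p under 0.05, SE is the standard error of a log2 fold change, and "no overlap" means that all 3 libraries of a group lie on the same side of all 3 of the other in CPM. DESeq2 1.42.0, other factors and filters, a replicate block, length-scaled TPM (TPM scaled to counts) and leaving out libraries were alternatives. Motifs and CpG were counted with Python 3.11.15.

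Totals ranged from 17403893 to 66546052 counts per library, and SEs also hold the spread between replicates. On simulated data with the EZH2i and Ctr layout, 105 of 200 genes changed 2-fold (18104 genes tested) and 190 of 200 changed 4-fold (18106 genes) were recovered. In these 2 runs 7 and 5 unchanged genes were also called. The simulated libraries were independent, with a spread taken from the trend over all genes. The recovery of a gene with a wider spread was therefore not shown. Same-numbered libraries were correlated in their deviations from group means. Between IFN-γ and IFN-γ + EZH2i the r was 0.493 to 0.642. Between EZH2i and IFN-γ + EZH2i it was 0.496 to 0.621, and both pairs of groups were treated as paired. Against Ctr, r was 0.0467 to 0.495 for EZH2i, 0.0854 to 0.544 for IFN-γ and 0.0134 to 0.474 for IFN-γ + EZH2i. These were not treated as paired. All members are reported, and of the lists of regulators, targets and OPC markers at most the 3 called genes with the largest fitted changes per comparison and a mean of at least 1 CPM. Members and lists (other regulators, Notch and Id, Wnt, differentiation and myelin, OPC and other cell markers) were chosen with earlier results of these data known. Genes closest to a member were ranked for the 3 members of widest spread, and *Irf1* checks the IFN-γ labels.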

Additional observations from a re-analysis of the deposited data

How the results depend on the processing

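Over all alternatives and comparisons, the members' values stayed on the same side of 0 and of the threshold in 1200 cases, turned direction in 49, gained a call in 39, lost it in 26 and, for ratios of levels, moved beyond the replicate spread in 6. The cause was not tested. Genes called for EZH2i against Ctr numbered 77, and 297 by DESeq2, 121 with no filter, 29 with at least 10 counts in every library, 771 with the replicate block, 49 from length-scaled TPM, 33 with only the 6 libraries compared and 0 with all libraries numbered 2 left out. For inhibitor on top of IFN-γ they numbered 67, and 259, 11 (10 counts), 748 (replicate block), 31 (length-scaled TPM), 7 (only 6 libraries), 1718 (block and only 6 libraries) and 0 (numbered 2 left out), the second value by DESeq2. For IFN-γ against Ctr 1663 became 4032 with the block and 548 without the libraries numbered 2; for IFN-γ on top of inhibitor 1533 became 3661 with the block, 3360 with the block on 6 libraries and 557 without those numbered 2; and for both agents against Ctr 2342 became 5531 with the block and 789 without those numbered 2. The block with only the 6 libraries and the exclusion of the libraries numbered 2 were chosen after seeing the data; the latter leaves 2 libraries a group, and no member was then called in any comparison. Adjusted p became 0.168 for Sox8, 0.168 for Zfp488, 0.234 for Olig1 and 0.0565 for Olig2 with both agents against Ctr, 0.537 for Sox8 with IFN-γ against Ctr and 0.394 for Sox8 with IFN-γ on top of inhibitor. Same-numbered libraries of Ctr and the other groups correlated only in part. Against the 3 treated groups, r was 0.411 to 0.49 for Ctr replicate 1 and 0.474 to 0.544 for Ctr replicate 3. It was 0.0134 to 0.0854 for Ctr replicate 2, which did not correlate best with its own number in IFN-γ + EZH2i. The block is therefore no paired analysis there, and the main test against Ctr does not model what numbers 1 and 3 share.

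Without 1 library at a time, the counts ranged from 11 to 83 for EZH2i against Ctr, 1111 to 1710 for IFN-γ against Ctr, 10 to 65 for inhibitor on top of IFN-γ, 1078 to 1566 for IFN-γ on top of inhibitor and 1632 to 2486 for both agents against Ctr, and stayed 0 for the interaction. Members that changed sign without a library were uncalled ones. Against Ctr, IFN-γ ranged from -0.69 to 0.39 for Sox10, -0.53 to 0.90 for Nkx2-2, -0.49 to 0.77 for Tcf7l2 and -0.23 to 0.016 for Zfp488, EZH2i from -0.42 to 0.51 for Nkx6-2 and both agents from -1.33 to 0.14 for Nkx2-2. Inhibitor on top of IFN-γ ranged from -1.13 to 0.19 for Sox10, -1.74 to 0.19 for Nkx2-2 and -0.73 to 0.60 for Nkx6-2. IFN-γ on top of inhibitor ranged from -0.64 to 0.36 for Sox10, -0.21 to 1.14 for Nkx2-2 and -0.38 to 0.97 for Tcf7l2. The interaction ranged from -0.30 to 0.17 (Olig2), -0.71 to 0.61 (Sox10), -0.23 to 0.23 (Sox8), -0.49 to 0.71 (Myrf), -0.62 to 1.30 (Nkx2-2), -0.94 to 0.38 (Nkx6-2), -0.77 to 1.13 (Tcf7l2) and -0.71 to 0.14 (Hes5). Sox10 in IFN-γ against Ctr also turned to -0.090 with the replicate block, Nkx6-2 for inhibitor on top of IFN-γ to 0.12 and the interaction of Hes5 to 0.11 without the libraries numbered 2. The shallowest library held 17403893 counts, and what depth limits was not tested apart from the spread between replicates.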
